A study of Bos taurus with 252 samples.

Results

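Blood transcriptomes of steers given an antimicrobial that binds the bacterial ribosome were compared with those of steers given one that does not. The first group held 24 steers, 6 each on florfenicol (FLOR), oxytetracycline (OXYT), tildipirosin (TILD) and tulathromycin (TULA), and the second held 12 steers, 6 each on ceftiofur (CEFT) and enrofloxacin (ENRO). These are 36 of the 42 steers and each gave a library on days 0, 3 and 7. The 6 untreated steers (NC) were not used. Members were chosen by the drug in the sample labels and by the textbook target of that drug, a rule that uses no measured value. The measure compared was the change within a steer from day 0 to day 3 and from day 0 to day 7.

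The animals were crossbred steers that entered a feedlot for a receiving trial of metaphylaxis, the treatment of a whole group of cattle before disease is seen. Whole blood was collected in PAXgene tubes, whose additive preserves RNA, and day 0 blood was taken before the drug was injected once at its label dose. Each drug had its own pen and the pens were sampled in a fixed order on every later day (NC, ENRO, FLOR, TULA, TILD, CEFT, OXYT), so drug, pen and place in that order cannot be told apart. All steers, whichever drug followed, had received tildipirosin, a hormone implant, vaccines and dewormers earlier at a grow yard, and none was treated for disease during the trial. A ribosome-binding drug was therefore part of the history of both groups.

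Florfenicol, an amphenicol, and the macrolides tildipirosin and tulathromycin bind the large subunit of the bacterial ribosome, and oxytetracycline, a tetracycline, binds the small subunit. Ceftiofur is a cephalosporin that blocks the penicillin-binding proteins of the cell wall, and enrofloxacin is a fluoroquinolone that acts on bacterial gyrase and topoisomerase IV. Mitochondria descend from bacteria, and their own ribosomes, which translate the few proteins encoded by mitochondrial DNA, are relatives of the bacterial ones. The comparison thus addresses whether drugs with a shared bacterial target leave a shared mark on host RNA, with the mitochondrial genes as the group nearest to that target.

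Values are counts per gene that the authors derived from the coverage of assembled transcripts on ARS-UCD1.3, given here as CPM, the count relative to the TMM-scaled library total, or as changes in log2 CPM. Library totals lay between 26.9 and 69.2 M counts, with a median of 44.6 M. Blood cell markers were present as the labels state, with means of 723 CPM for CD3E of T cells, 310 CPM for CD79B of B cells, 1720 CPM for LYZ of monocytes and 876 CPM for S100A9 of neutrophils. Hemoglobin genes took from 0.00393% to 25.4% of a library. CEFT and OXYT were sequenced on lane 3, ENRO on lane 1 and TULA on lane 2, while FLOR was split over lanes 1 and 2 and TILD over lanes 2 and 3; a steer kept its lane on all days, so a lane difference in level that does not vary by day cancels in its change. In whole blood, fewer cells of a type and less RNA per cell cannot be told apart.

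No gene passed the test for a difference between ribosome-targeting drugs and the other drugs in its change to day 3 or to day 7. With an FDR of 0.1 over 19056 genes, edgeR's quasi-likelihood test called 0 genes (0.0%) on day 3 and 0 genes (0.0%) on day 7, and the smallest FDR was 0.923 and 1.0. At an unadjusted p under 0.05 there were 911 genes (4.78%) on day 3 and 686 (3.6%) on day 7, where 5% of the genes tested is 953. The likelihood ratio test and limma on the per-steer differences also called 0 genes on both days. DESeq2 called 4 genes on day 3 and 12 on day 7, and these had between 6 and 77 and between 2 and 68 of the libraries at 0. Leaving out each of the 36 steers in turn left 0 calls by limma on both days. Leaving out a whole drug did change the count: without CEFT, so that ENRO alone stood for the other class, 1739 genes were called on day 7 (970 higher, 769 lower), and without ENRO 4 genes were called on day 3, DBN1, BGN, CYGB and SERPINH1. Among the 13794 genes with a mean of at least 1 CPM, the median half-width of limma's 95% interval for the class difference was 0.226 on day 3 and 0.275 on day 7 (log2). That interval lay within 1 log2 unit of 0 for 90.5% of them on day 3 and for 90.3% on day 7, and within 0.5 for 71.5% and 69.4%. For most expressed genes a class difference of 2-fold was therefore outside the interval. One of 0.25 was inside or at the edge for most of them, with 32.8% and 22.1% of intervals within that bound. These intervals treat the 24 and 12 steers as replicates, while the class was assigned by drug, 4 against 2. They measure the spread between steers and do not bound a difference between target classes.

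**Figure D1:**
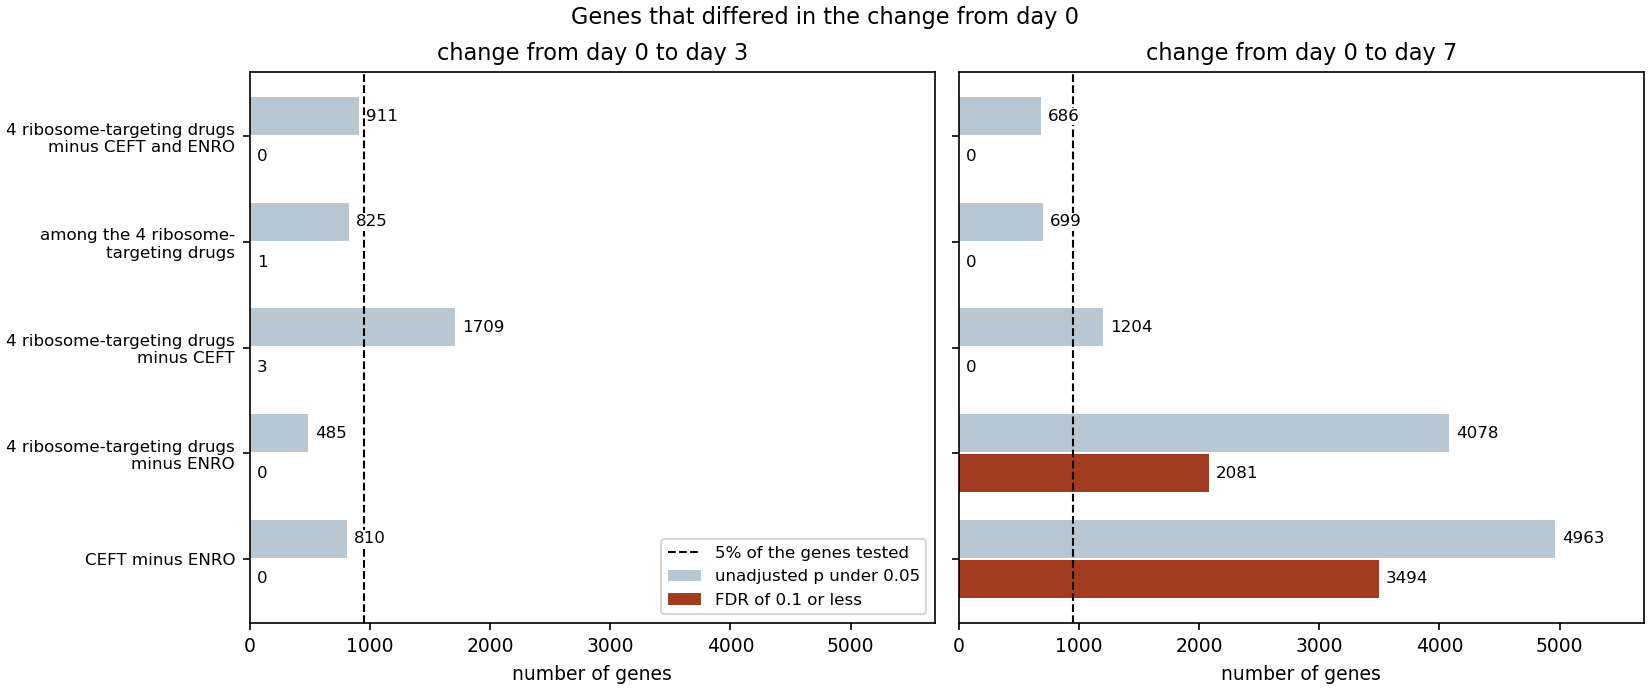
Number of genes of 19056 (x axis) whose change from day 0 to day 3 (left) or day 7 (right) differed in each of 5 contrasts (y axis), at an unadjusted p under 0.05 (grey) and at an FDR of 0.1 or less (red). The dashed line is 5% of the genes tested; the class contrast, at the top, stays at 911 and 686 with 0 genes past FDR, and the 2081 and 3494 red genes are in the contrasts with ENRO on day 7.

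As drugs are the units that were assigned to a target class, the mean change of each drug was also compared. On day 3 the 4 means of the ribosome-targeting drugs all lay on one side of the CEFT and ENRO means for 2629 genes (13.8%), 1474 higher (7.74%) and 1155 lower (6.06%). On day 7 this held for 1689 genes (8.86%), 793 higher (4.16%) and 896 lower (4.7%). There are 15 ways to divide 6 drugs into 4 and 2, so an exact permutation test over drugs cannot go below 0.0667, and these counts are given without a test.

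The genes with the smallest unadjusted p on day 3 are described next, although none passed the test (FDR 0.923 for each in edgeR's quasi-likelihood fit). DPP9 and IRF5 led those with a lower change in the ribosome class. DPP9, a dipeptidyl peptidase that restrains inflammasome sensors, had changes from -0.75 to 0.27 with a median of -0.14 in the 24 ribosome-class steers and from -0.17 to 0.91 with a median of 0.16 in the other 12. Its class difference was -0.42 (unadjusted p 0.000358, limma 95% interval -0.63 to -0.2), and FLOR with a mean of 0.02 stood apart from OXYT, TILD and TULA, at -0.29, -0.19 and -0.31. IRF5, a transcription factor of the interferon and toll-like receptor pathways, went from a median of 50.1 to 37 CPM in the ribosome class and from 27.5 to 54.7 CPM in the other class. Its difference was -1.32 (unadjusted p 0.00052), and the drug means of 1.82 in CEFT and 0.51 in ENRO were far apart from each other. BCL3, a nuclear IkB protein, and PIM1, a kinase induced by cytokines, differed by -0.58 and -0.35, and both classes overlapped over most of their range.

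The genes that held the same sign in all 12 steers of the other class had small differences. XPNPEP1, an aminopeptidase, was up by 0.03 to 0.57 in 12 of 12 CEFT and ENRO steers and lay between -0.32 and 0.3 in the ribosome class (difference -0.2). DHDDS, which makes the lipid carrier dolichol, was up by 0.05 to 0.74 in 12 of 12 and had a median of -0.03 in the ribosome class (difference -0.29, limma interval -0.47 to -0.14). ADIRF, a regulator of adipocyte formation, was up in 12 of 12 as well as in 21 of 24. In the opposite direction, CDC37L1, a partner of the chaperone HSP90, was down in 12 of 12 CEFT and ENRO steers, with changes from -0.95 to -0.01, and in 15 of 24 steers of the ribosome class (difference 0.39, unadjusted p 0.00132). ZFAND1, a zinc finger protein that helps to clear stress granules, had the smallest unadjusted p on this side, 0.000665. Its changes ran from -0.71 to 1.06 with a median of 0.11 in the ribosome class and from -0.9 to 0.41 with a median of -0.41 in the other, so the ranges overlapped. DEPTOR, an inhibitor of mTOR, had a class difference of 0.47, with means of 0.23 in FLOR and 0.57 in OXYT but -0.17 in TILD and -0.28 in TULA. The remaining genes were PLEKHH3 (0.5), ZNF354A (0.41), MBLAC2 (0.5), DPY19L1 (0.37), NFIA (0.62) and RMDN2 (0.34) on the higher side, and ME3 (-0.57), DBN1 (-0.35) and LSM10 (-3.55) on the lower. ATR, the DNA damage checkpoint kinase, had a fitted difference of 9.1 but was at 0 in 61 libraries, which leaves its size undetermined (limma 4.61, interval -1.49 to 10.71).

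**Figure D2:**
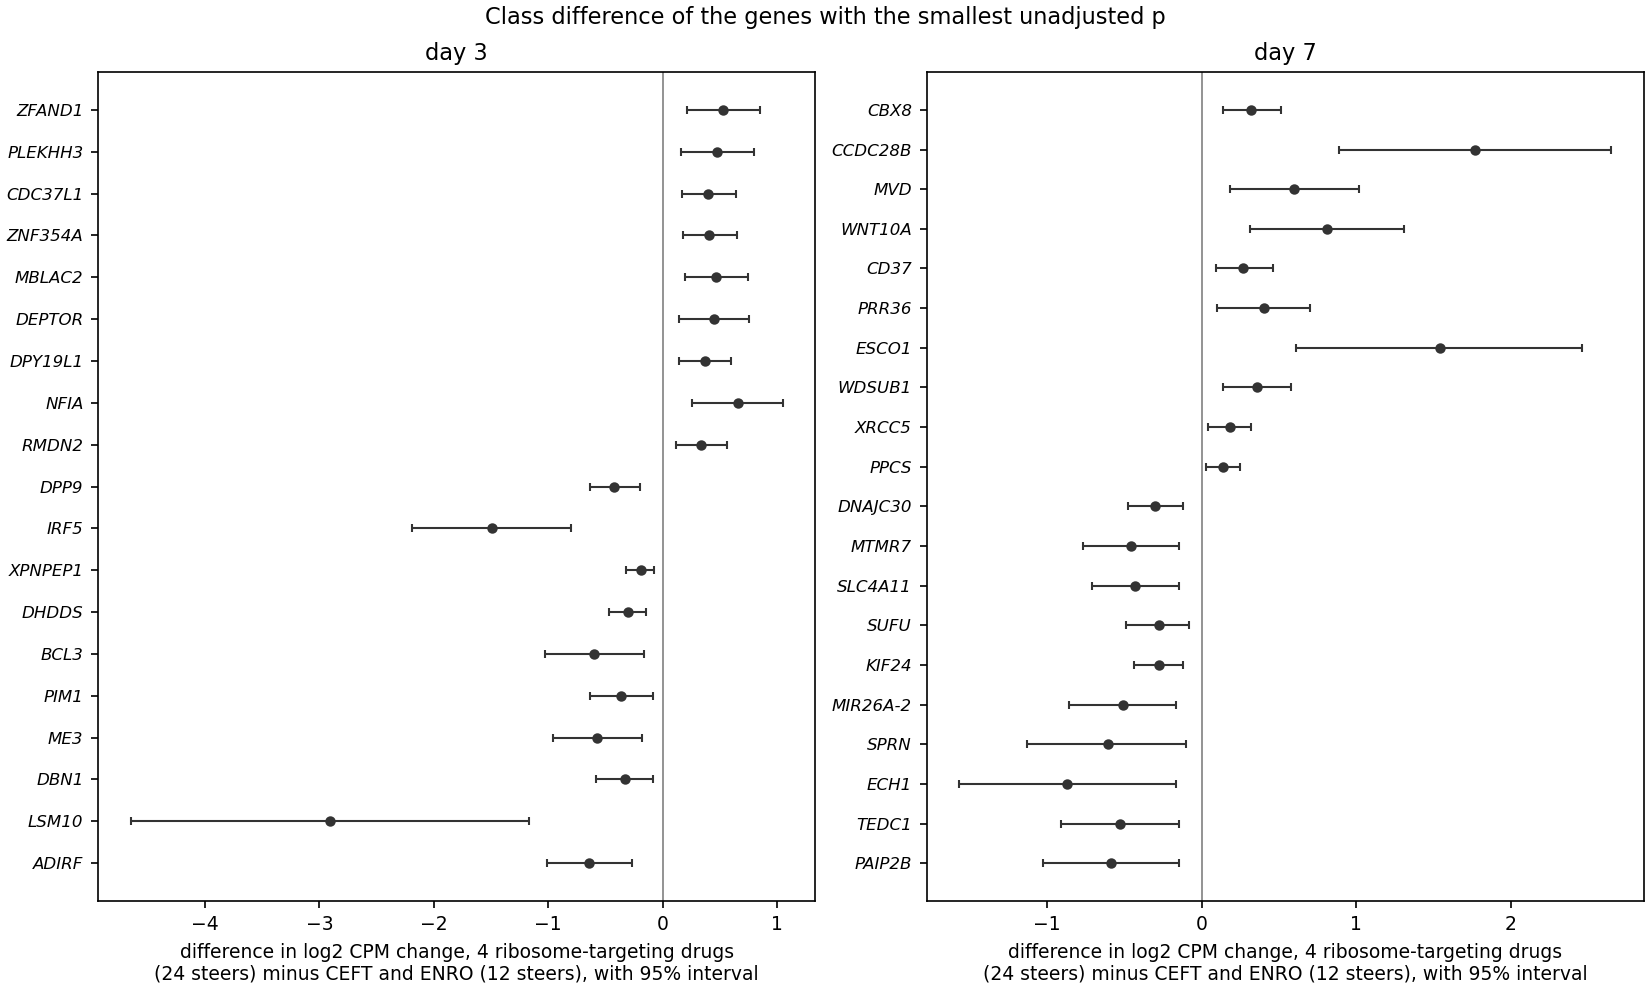
Class difference in log2 CPM change (points) with limma's 95% interval (bars) for the genes with the smallest unadjusted p on each side, day 3 at left and day 7 at right; ATR, whose interval reaches 10.71, is not drawn. None of these genes passed FDR 0.1, and most differences are under 1 log2 unit.

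On day 7 the leading genes were others (FDR 1.0 for each in edgeR's quasi-likelihood fit). DNAJC30, a mitochondrial J-domain protein, had the smallest unadjusted p, 0.00021. It was up by 0.11 to 0.49, with a median of 0.28, in 12 of 12 CEFT and ENRO steers, and ran from -0.52 to 0.58 with a median of -0.01 in the ribosome class (difference -0.3, limma interval -0.48 to -0.12). The ribosome-class steers were evenly divided, 12 up and 12 down, so the range of the other class lay inside theirs. CBX8, a polycomb protein, showed the reverse, with medians of 0.13 and -0.27 and a difference of 0.33 (unadjusted p 0.000395). ENRO carried most of that, at a mean of -0.44 against -0.05 in CEFT. MVD, an enzyme of the mevalonate pathway, had a class difference of 0.64 with means of -0.05 in CEFT and -0.72 in ENRO. TILD and TULA stood at 0.59 and 0.33 and FLOR and OXYT at 0.02 and -0.07. The level of MVD on day 0, before any drug, differed between the classes by -0.5, which did not pass FDR. CD37, a tetraspanin of B cells, was alike within both classes: means of 0.19, 0.13, 0.22 and 0.25 in FLOR, OXYT, TILD and TULA against -0.05 and -0.11 in CEFT and ENRO (difference 0.28, unadjusted p 0.00141).

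MTMR7, a myotubularin phosphatase, was down in 23 of 24 ribosome-class steers, with a median of -0.57, and in 7 of 12 others, with a median of -0.2 (difference -0.44). TEDC1, a partner of centriole tubulins, was up in 12 of 12 CEFT and ENRO steers and in 16 of 24 of the ribosome class (difference -0.54). The other genes on the higher side were CCDC28B (1.53), WNT10A (0.83), PRR36 (0.42), ESCO1 (1.78), WDSUB1 (0.35), XRCC5 (0.18), the Ku subunit of DNA end joining, and PPCS (0.14), an enzyme of coenzyme A synthesis. On the lower side they were SLC4A11 (-0.45), SUFU (-0.28), KIF24 (-0.28), SPRN (-0.6), ECH1 (-0.97), PAIP2B (-0.58) and MIR26A-2 (-0.49), a microRNA gene whose reads in an mRNA library cannot be told apart from those of an overlapping host transcript.

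The 13 protein genes of mitochondrial DNA, the products of the mitochondrial ribosome, had 0 members past the class test on either day, in edgeR, limma or the likelihood ratio test, and 0 with an unadjusted p under 0.05 in edgeR. Their class differences had a median of 0.15 on day 3 and -0.01 on day 7, beside 0.01 for all genes on both days. ND4, a subunit of complex I, had the largest value on day 3, 0.31 (unadjusted p 0.217), with changes from -1.44 to 1.18 and a median of 0.52 in the ribosome class and from -1.61 to 1.7 with a median of 0.02 in the other. The difference was thus small beside the spread between steers. COX1, the catalytic subunit of cytochrome c oxidase, differed by -0.07 on day 3 (limma interval -0.38 to 0.22) and by -0.05 on day 7 (-0.49 to 0.36). CYTB of complex III differed by 0.25 and 0.02, ATP6 of ATP synthase by 0.18 and 0.03, COX2 by 0.18 and -0.02, and the complex I genes ND1, ND2, ND3, ND4L and ND5 by 0.04 to 0.19 on day 3 and by -0.09 to 0.06 on day 7. ND6 had a mean of 0.151 CPM and a difference of -0.29 on day 3. COX3 and ATP8 could not be read: the change of COX3 ran from -11.06 to 11.33 over the steers of the ribosome class and that of ATP8 from -6.3 to 5.55, so both are reported as uncertain. ATP8 overlaps ATP6 on the mitochondrial genome and COX3 adjoins it, and a coverage-based count can divide reads between such genes.

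**Figure D3:**
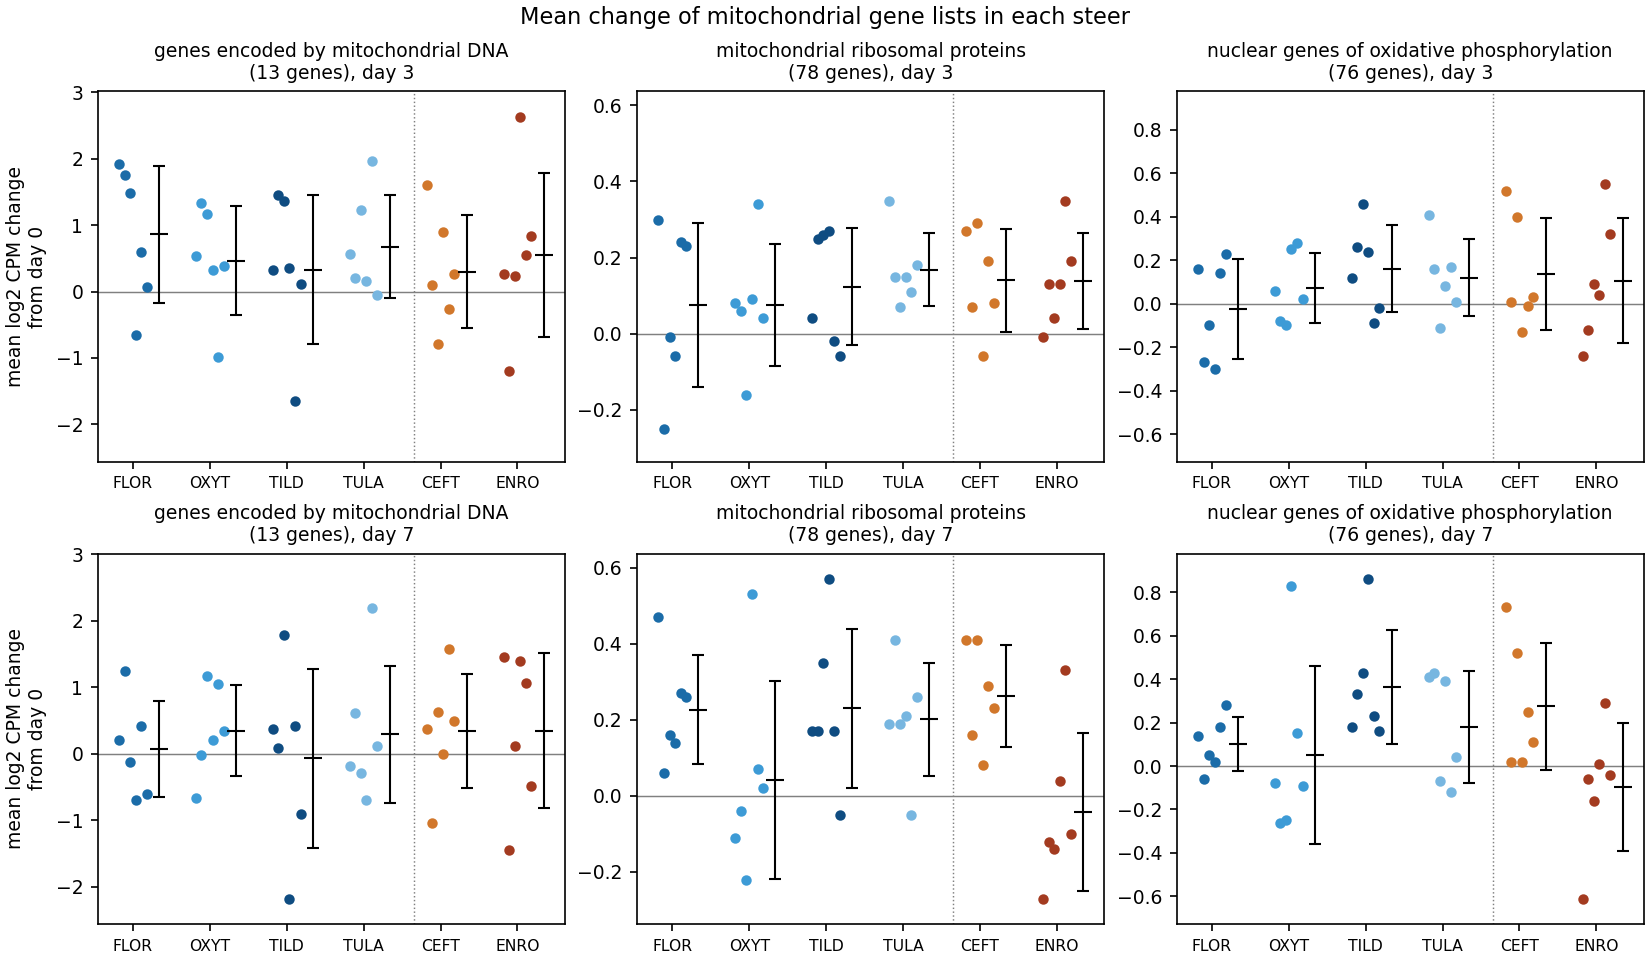
Mean log2 CPM change from day 0 (y axis) of 3 lists of mitochondrial genes in each of 36 steers (points) by drug (x axis), on day 3 (top) and day 7 (bottom), with the mean and SD of the 6 steers of a drug as bars. The classes, divided by the dotted line, overlap throughout, and on day 7 the ENRO mean is below the CEFT mean for mitochondrial ribosomal proteins and oxidative phosphorylation, with steers of both drugs overlapping.

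Averaged over the 13 genes of mitochondrial DNA, the change to day 3 ran from -1.65 to 1.96 with a median of 0.46 in the ribosome class and was above 0 in 20 of 24 steers. It ran from -1.2 to 2.63 with a median of 0.26 in the other class and was above 0 in 9 of 12. The ranges of both classes thus overlapped over most of their length. COX3 and ATP8, which could not be read, are part of these means, and their part in the spread was not tested.

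The list of nuclear genes named as mitochondrial ribosomal proteins had 0 of 78 members past the class test. Of these, 1 on day 3 and 2 on day 7 had an unadjusted p under 0.05, all higher in the ribosome class, with medians of -0.03 and 0.08. MRPS36 differed by 0.36 on day 3 (unadjusted p 0.0304) and MRPL43 by 0.17 on day 7 (unadjusted p 0.0384). Mitochondrial translation factors and mRNA handling proteins (23 genes) had medians of 0.02 and 0.04, with MTERF4, which binds mitochondrial rRNA, at 0.75 on day 7 (unadjusted p 0.0273). The chaperones and proteases that respond to misfolded mitochondrial protein (16 genes) had medians of -0.05 and 0.04, with CLPX, the unfoldase of the matrix protease, at 0.21 on day 3 (unadjusted p 0.0234). The integrated stress response (23 genes), a route by which mitochondrial faults reach the nucleus, had medians of -0.03 and 0, with the amino acid transporter SLC7A5 at -0.16 on day 3 (unadjusted p 0.0154).

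Nuclear genes of oxidative phosphorylation (76 genes) had 1 member per day at an unadjusted p under 0.05, NDUFB2 at 0.15 on day 3 and NDUFB10 at 0.2 on day 7, both in complex I. Their median was -0.04 on day 3 and 0.08 on day 7, and 68 of 76 were above 0 on day 7. By steer, the mean over the list on day 7 ran from -0.26 to 0.86 (median 0.15) in the ribosome class and from -0.61 to 0.73 (median 0.02) in the other. Within the other class CEFT ran from 0.02 to 0.73 (median 0.18) and ENRO from -0.61 to 0.29 (median -0.05), on either side of the ribosome-class median. Cytosolic ribosomal proteins (78 genes), which build the host's own ribosome, had medians of 0.05 and 0.06. The 6 DNA topoisomerases, of which TOP2A and TOP2B are the host relatives of the enrofloxacin target, had medians of 0.02 and -0.12. No member had an unadjusted p under 0.05.

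Of the lists not tied to mitochondria, macrolides collect in lysosomes, and MCOLN1, a calcium channel of the lysosome, had the smallest unadjusted p of its 31 genes on both days. Its changes to day 3 ran from -1.64 to 3.18 with a median of 0.79 in the ribosome class and from -1.79 to 1.41 with a median of -0.47 in the other (difference 1.29, unadjusted p 0.00272). On day 7 the difference was 0.92 (unadjusted p 0.0282), with drug means of 1.33 in TULA, 1.21 in TILD, 0.56 in OXYT and -0.18 in FLOR against -0.22 in CEFT and -0.27 in ENRO. It did not pass FDR on either day, and the list's medians were 0.01 and 0.04. The level of MCOLN1 on day 0, before any drug, differed between the classes by -0.38, which did not pass FDR. Sterol and fatty acid synthesis (25 genes) had medians of 0 and 0.05.

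The interferon response (44 genes) had a class difference below 0 for 41 members on day 3, with a median of -0.39, yet a single member, OASL, had an unadjusted p under 0.05 (-0.28, 0.0324). By steer, the list's mean change ran from -2.17 to 2.08 with a median of -0.11 in the ribosome class and from -2.54 to 2.12 with a median of 0.33 in the other, so the spread between steers was several times the difference. On day 7 the median was -0.01. SOCS3, a feedback inhibitor of cytokine signalling in the inflammatory list (29 genes), differed by -0.53 on day 3 (unadjusted p 0.00938). Cell proliferation genes (31) had medians of -0.18 and -0.15, with MKI67 at -0.59 on day 7 (unadjusted p 0.0247). The day 3 value pools drugs with unlike means of the list, -0.78 in FLOR, -0.32 in OXYT and 0.05 in both TILD and TULA.

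Markers of blood cells did not pass the test in either direction. T cell markers (25) had medians of -0.05 and 0.05, with CD247, a chain of the T cell receptor complex, at -0.15 on day 3 and CD5 at 0.21 on day 7 (unadjusted p 0.00606). CD5 was up in 24 of 24 ribosome-class steers and in 11 of 12 others. B cell markers (18) had medians of -0.03 and 0.04, with TNFRSF13C, the receptor of the survival factor BAFF, at 0.37 (unadjusted p 0.00566) and CD79B at 0.27 (unadjusted p 0.0145) on day 7. NK cell markers (17) had medians of -0.18 and 0.07, with NKG7 at -0.25 on day 3 (unadjusted p 0.0233). Erythroid markers (24) had medians of 0.04 and 0.66, with 21 of 24 above 0 on day 7 and 0 at an unadjusted p under 0.05. By steer their mean change to day 7 ran from -3.28 to 4.24 (median 0.72) in the ribosome class and from -2.34 to 1.75 (median -0.2) in the other, a spread several times the difference. Platelet markers (17) had medians of 0.02 and 0.23, with 13 of 17 above 0 on day 7. Neutrophil markers (31) had medians of 0.17 and 0.31, with the chemokine receptor CXCR2 at 0.99 and LCN2 at 0.44 on day 7 (unadjusted p 0.0291 and 0.0233). Their level on day 0, before any drug, was already lower in the ribosome class, with a median difference of -0.29. There 22 of 31 were below 0, and 3, all lower, had an unadjusted p under 0.05 in edgeR's quasi-likelihood test. The part of this start level in the later changes was not tested. LYZ, in the monocyte list, differed by 0.36 on day 3 (unadjusted p 0.025).

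The change in the class difference between the days depended on which drugs stood for a class. The difference of day 7 minus that of day 3 passed FDR 0.1 in edgeR's quasi-likelihood test for 13 genes (0.0682%), 9 higher and 4 lower, with FDR values from 0.0458 to 0.0826, and 2287 genes (12%) had an unadjusted p under 0.05. It passed for 2086 genes without CEFT (987 higher, 1099 lower), 15 without ENRO, 6 without OXYT, 2 without TILD, 2 without TULA and 0 without FLOR, and for 2 genes with lane by day terms. The 13 genes are named here. For EIF4A3, a core protein of the exon junction complex, the class difference went from -0.12 to 0.14, for MPI, which feeds mannose into glycosylation, from -0.24 to 0.15, and for CD247 from -0.15 to 0.14. For DBN1 (drebrin, an actin-binding protein) it went from -0.35 to 0.17, for PYGM (muscle glycogen phosphorylase) from -0.44 to 0.27, for DUSP14 from -0.21 to 0.18 and for ISLR, at 0.753 CPM, from -0.65 to 0.91. LOC112446378 and LOC112448411 moved by 1.23 and 0.29 in the same direction. The 4 that went lower were MTMR7 (0.11 to -0.44), LOC100296627 (0.65 to -0.19), RET (0.24 to -0.23) and ERMP1 (0.22 to -0.14). In all 9 genes that moved upward the mean change of the CEFT and ENRO steers was higher on day 3 than on day 7. These genes were chosen by the same values, so this is not a separate observation.

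On day 0, before any drug was injected, 3 genes (0.0157%) were lower in the ribosome class, LOC112442318, LOC104976573 and LOC112442598. None of them was a member of a list.

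The 4 ribosome-targeting drugs were also compared with one another. In edgeR's quasi-likelihood test over the 4 drugs, 1 gene (0.00525%) passed on day 3 and 0 (0.0%) on day 7. The unadjusted p was under 0.05 for 825 and 699 genes, and the likelihood ratio test called 28 and 5. The gene past FDR was MRM2, a methyltransferase of the mitochondrial large-subunit rRNA, with mean changes of 3.2 in OXYT, 0.72 in TILD, 0.07 in TULA and -2.0 in FLOR (FDR 0.0654). It was at 0 in 24 libraries. Among the lists, 25 of 31 cell proliferation genes had an unadjusted p under 0.05 on day 3, beside 4.33% of all genes, and 0 passed FDR in edgeR's quasi-likelihood test. The mean change of that list by steer ran from -1.31 to 0.01 (median -0.88) in FLOR, from -0.79 to 0.04 (median -0.29) in OXYT, from -0.32 to 0.32 (median 0.01) in TILD and from -1.15 to 0.97 (median 0.15) in TULA. It was below 0 in 5 of 6 FLOR and 5 of 6 OXYT steers, and all 4 drugs overlapped. On day 7, 0 of the 31 had an unadjusted p under 0.05.

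CEFT and ENRO, the drugs without a ribosomal target, differed from each other for many genes on day 7. On day 3 edgeR's quasi-likelihood test called 0 genes (0.0%) between them, with 810 at an unadjusted p under 0.05, and limma and the likelihood ratio test called 0. On day 7 it called 3494 genes (18.3%), 1681 with a higher change in CEFT (8.82%) and 1813 with a lower one (9.51%). CYC1, UNC119 and CDK10 had the smallest p among those higher in CEFT. CYC1, a subunit of complex III, changed by 0.24 to 0.5 (median 0.41) in the 6 CEFT steers and by -0.86 to -0.01 (median -0.29) in the 6 ENRO steers, a difference of 0.77 (FDR 0.00104). In CPM it went from 129 ± 11.4 to 169 ± 8.41 in CEFT and from 138 ± 18.9 to 106 ± 15.8 in ENRO (SD, n = 6), and the changes of the drugs did not overlap.

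UNC119, which ferries lipidated signalling proteins, changed by 0.22 to 0.6 in CEFT and by -0.57 to 0 in ENRO, again without overlap (difference 0.62, FDR 0.00104). CDK10, a cyclin-dependent kinase, changed by 0.29 to 1.06 and by -0.47 to 0.18 (difference 0.73, FDR 0.00104). The next 7 on this side were AP5S1 (0.63), SDHAF1 (0.69), which assembles complex II, ECI1 (0.71), an enzyme of fatty acid oxidation, TMED9 (0.59) of the early secretory pathway, MGST3 (0.83), TP53RK (0.52) and PPT2 (0.65). For TP53RK and PPT2 the median changes in CEFT were 0.07 and 0.1, and the difference came with medians of -0.36 and -0.51 in ENRO.

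AKAP9, ZC3H13 and YLPM1 had the smallest p on the lower side. AKAP9, a scaffold of the centrosome and Golgi, changed by -0.81 to -0.19 (median -0.5) in CEFT and by 0.04 to 1.2 (median 0.34) in ENRO, a difference of -0.96 (FDR 0.00104). Its level went from 42.6 ± 5.8 to 29.9 ± 2.46 CPM in CEFT and from 42.4 ± 4.38 to 59 ± 15.3 CPM in ENRO (SD, n = 6). ZC3H13, a subunit of the m6A methyltransferase complex, differed by -0.8 and YLPM1, a nuclear protein that binds RNA, by -0.99 (FDR 0.00104 for both), and for all 3 genes every CEFT steer was below every ENRO steer. The others were TULP4 (-1.2), ITPR1 (-1.15), the calcium channel of the endoplasmic reticulum, ZMIZ1 (-0.92), CCDC6 (-0.49), RANBP2 (-1.04) of the nuclear pore, the chromatin remodeler SMARCA2 (-0.7) and CHAMP1 (-0.67).

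**Figure D4:**
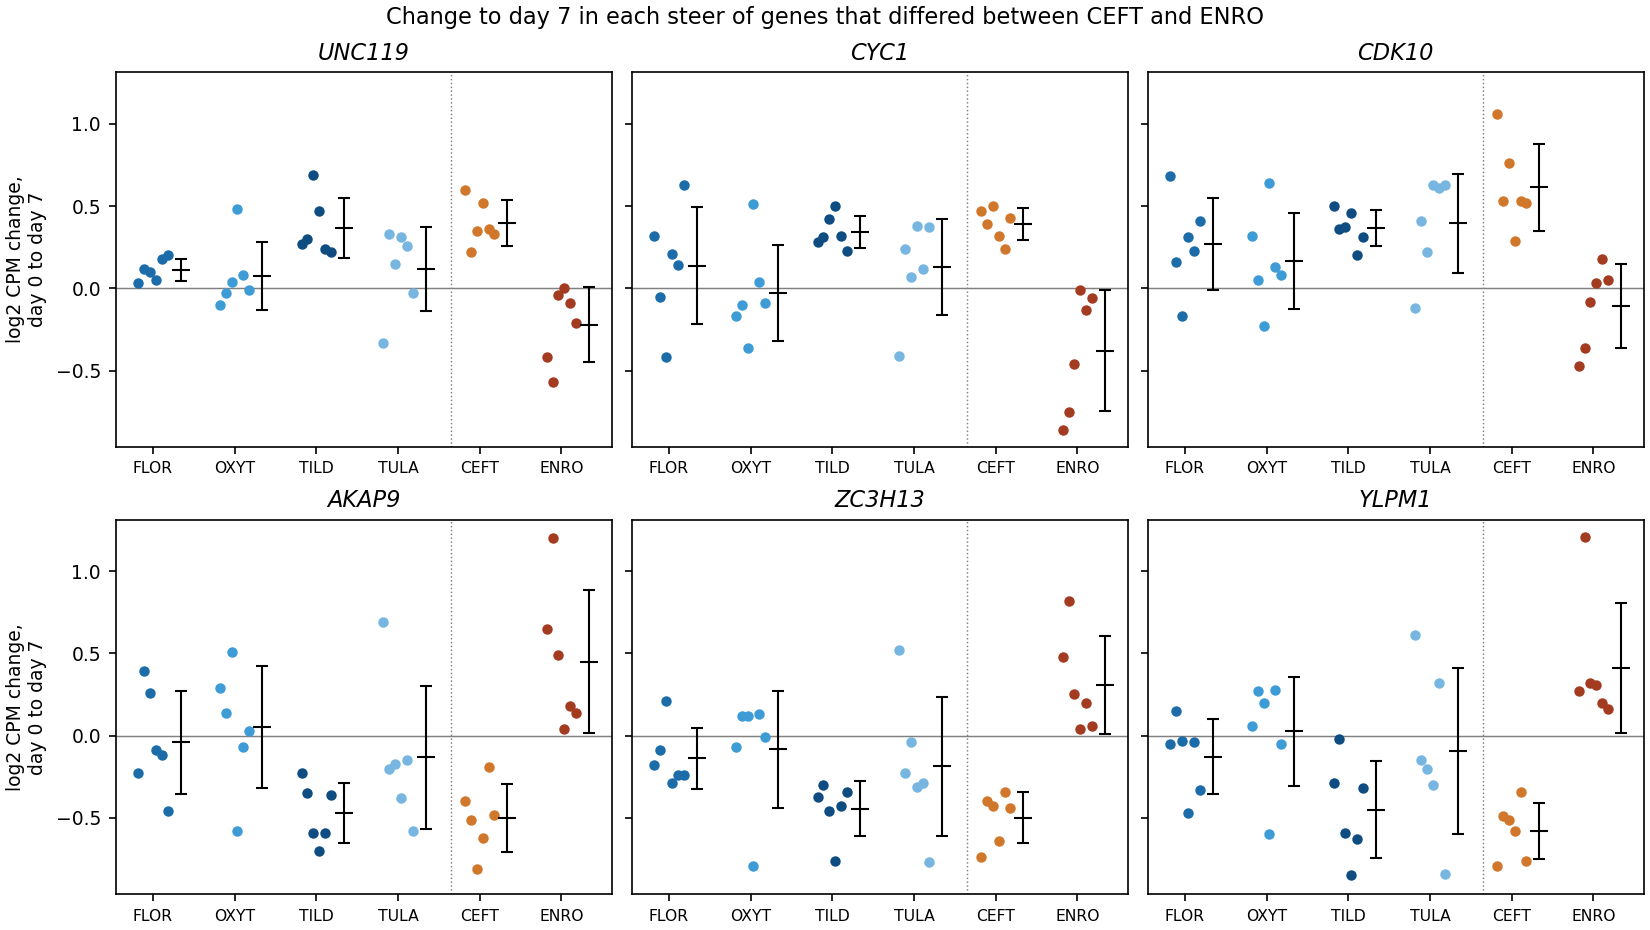
Change in log2 CPM from day 0 to day 7 (y axis) in each of 36 steers (points) by drug (x axis) for 6 genes with the smallest p between CEFT and ENRO, with the mean and SD of 6 steers as bars. CEFT and ENRO do not overlap for these genes, which were chosen for that difference.

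Of the lists of nuclear genes with a mitochondrial role, 3 had a larger share of members called than the 18.3% over all genes. Of 76 genes of oxidative phosphorylation 43 had a higher change in CEFT and 0 a lower one, with a median difference of 0.42 beside -0.02 for all genes. ATP5MC3 of ATP synthase differed by 0.65 (FDR 0.00271), NDUFS6 of complex I by 0.63 and SDHC of complex II by 0.4. Of 78 mitochondrial ribosomal proteins 32 were higher and 1 lower (median 0.32), among them MRPL45 (0.5, FDR 0.00271), MRPL54 (0.59) and MRPL38 (0.65). Of 16 mitochondrial chaperones and proteases 7 were higher and 0 lower (median 0.23), with prohibitin PHB at 0.63 (FDR 0.00271) and the protease subunit CLPP at 0.48. Mitochondrial translation factors, with 3 higher and 1 lower of 23 and a median of -0.05, were near the share over all genes, and limma called 0 of them. Their elongation factor TUFM stood at 0.33 (FDR 0.0443). In contrast, 0 of the 13 genes of mitochondrial DNA passed in edgeR's test, 0 of them had an unadjusted p under 0.05, and limma called 0, although their median was 0.46, with ND4 at 0.72 (FDR 0.247) and COX1 at 0.57 (FDR 0.238).

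Cytosolic ribosomal proteins had 20 higher and 0 lower of 78 (median 0.37), beside 8.82% higher over all genes. RPL38 stood at 0.78 (FDR 0.00394) and RPL28 at 0.55 (FDR 0.036). The number higher was 13 with no filter, 28 with the strict filter and 1 in limma. By steer, the list's mean change ran from -0.47 to 1.85 in CEFT and from -0.38 to 0.74 in ENRO. It was above 0 in 3 of 6 steers of each drug. Of the integrated stress response, 2 genes were lower and 0 higher of 23, near the share of 9.51% lower over all genes. The list's median was 0.01 beside -0.02 for all genes. The 2 were the kinases EIF2AK4 (-0.56), which senses amino acid shortage, and EIF2AK3 (-0.42), which senses unfolded protein. Among 6 DNA topoisomerases, TOP1 (-0.53, FDR 0.018) and TOP2B (-0.41, FDR 0.0152) were lower and none was higher. TOP1 changed by -1.13 to -0.17 in CEFT and by -0.25 to 0.19 in ENRO, and TOP2B by -0.39 to -0.18 and by -0.04 to 0.55. Of the 6 differences, 3 were above 0 and 3 below. The mean change of the list to day 7 was 0.05 (SD 0.31) in CEFT and 0.2 (SD 0.32) in ENRO.

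Clock genes had 1 higher and 6 lower of 19 (median -0.3), including PER2 (-0.94, FDR 0.00531), NR1D2 (-0.67) and ARNTL (-0.39), while limma called 0 higher and 1 lower. PER2 changed by -0.43 to 0.35 in CEFT and by 0.54 to 1.28 in ENRO. ENRO was the first and CEFT the fifth of the treated pens in the daily order of sampling. In that order (ENRO, FLOR, TULA, TILD, CEFT, OXYT) the list's mean change to day 7 was 0.13, 0.02, 0.13, -0.06, 0.02 and 0.17. The part of the order in these values was not tested. FKBP5, a glucocorticoid target, differed by -1.26 (FDR 0.0282) and was the single member of its list of 18 to pass. Sterol and fatty acid synthesis had 2 higher, FDFT1 (0.93) and MVK (0.53), and 5 lower of 25. The lysosome list had 6 higher, with NPC2 at 0.68 (FDR 0.00774), and 3 lower of 31. Over all genes the shares were 8.82% higher and 9.51% lower. The interferon list (44) and the inflammatory list (29) had 0 members called by edgeR's quasi-likelihood test, with 0 and 1 at an unadjusted p under 0.05. The likelihood ratio test and the strict filter each called 1 lower member of the inflammatory list, and proliferation genes had 1 of 31.

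**Figure D5:**
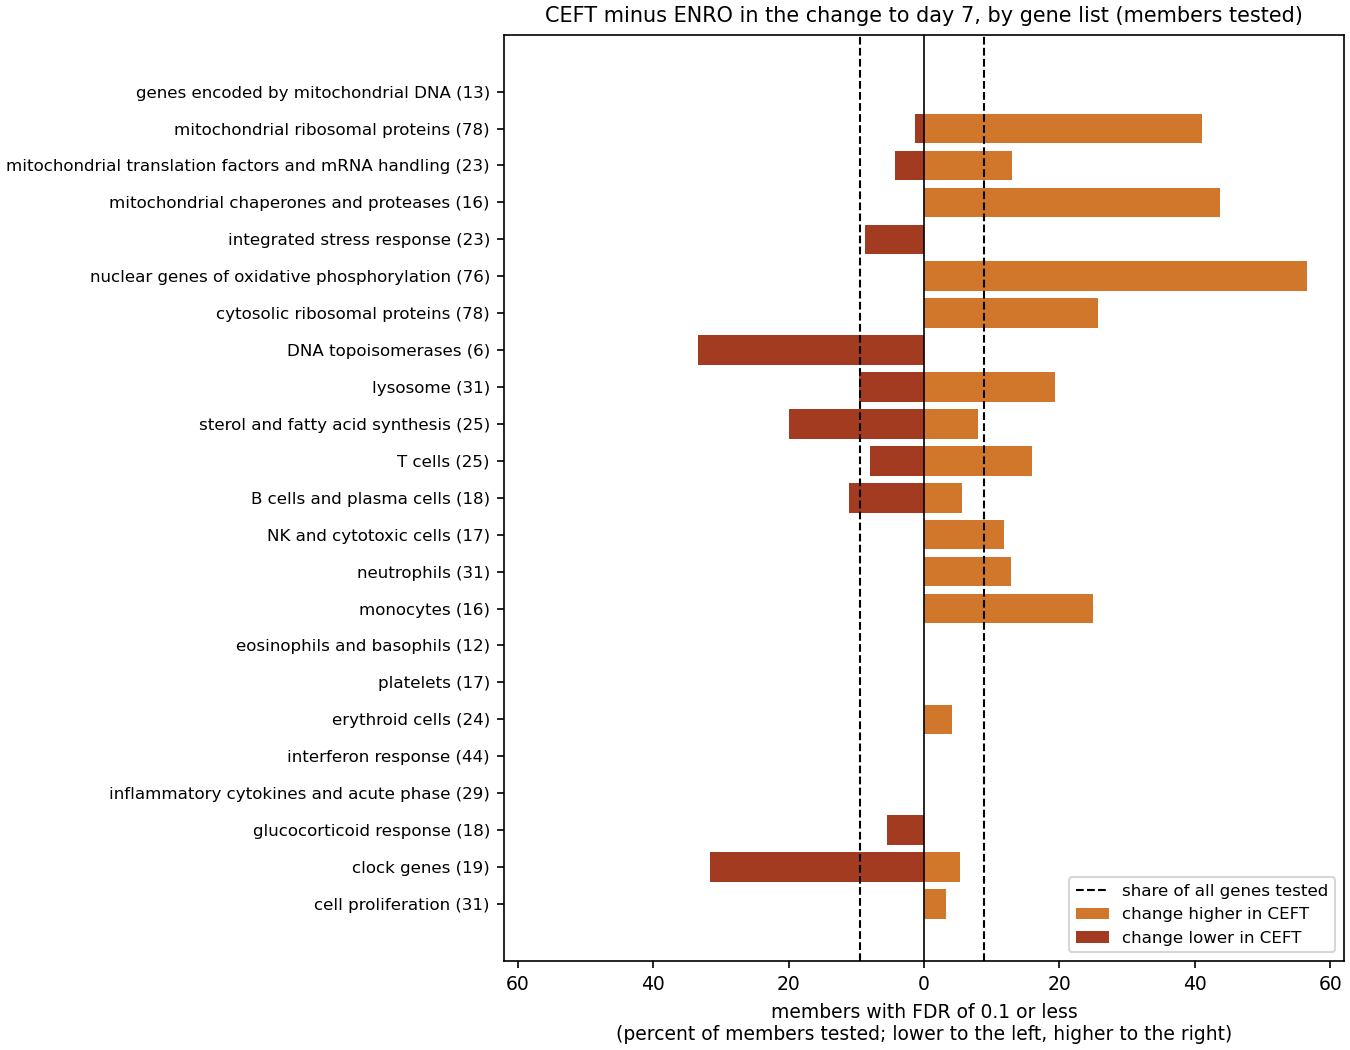
Share of the tested members of each list (percent, x axis) whose change to day 7 was higher in CEFT (orange, right) or lower (red, left) than in ENRO at an FDR of 0.1 or less, with the number tested in parentheses. Dashed lines mark the shares over all genes, 8.82% higher and 9.51% lower; oxidative phosphorylation (43 of 76), mitochondrial chaperones (7 of 16) and mitochondrial ribosomal proteins (32 of 78) reach furthest to the right.

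Blood cell markers had called members in shares below the 18.3% over all genes, except for monocytes and T cells, which were above it. Of 31 neutrophil markers 4 were higher in CEFT and 0 lower, with S100A9 at 1.09 (FDR 0.0152) and LCN2 at 0.99 (FDR 0.0127). The summed level of these markers went from between 6990 and 11297 CPM on day 0 to between 4165 and 5796 CPM on day 7 in ENRO and from between 6269 and 10476 to between 5560 and 6824 CPM in CEFT; 19 of the 31 were counted in every library and 5 were at 0 in over 50% of them. Monocyte markers had 4 higher of 16, with CST3 at 0.69, T cell markers 4 higher, with LAT at 0.38, and 2 lower of 25, NK markers 2 higher of 17, with NCR3 at 0.58, and B cell markers 1 higher and 2 lower of 18, the lower ones being PAX5 (-1.27, FDR 0.00271) and CR2 (-0.9). Erythroid markers had 1 of 24 and eosinophil and platelet markers 0 called by the quasi-likelihood test (1 of 12 and 1 of 17 at an unadjusted p under 0.05), while the likelihood ratio test and the strict filter each called 1 platelet marker lower. Limma called 2 of 31 neutrophil, 1 of 16 monocyte, 1 of 25 T cell, 2 of 17 NK and 2 of 18 B cell markers. Over all genes it called 1743 of 19056. On day 7 ENRO libraries held 48.5 to 59 M counts and CEFT libraries 33.9 to 57 M, and genes of mitochondrial DNA took 0.853% to 3.28% of counts in ENRO and 1.9% to 4.76% in CEFT. The part of neutrophil number, of the other marker cells and of depth in the 3494 calls was not tested, and drug, pen, lane and sampling order cannot be told apart.

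These day 7 calls depended on the test and on single steers. Limma on the per-steer differences called 1743 of 19056 genes, 861 higher and 882 lower. Among them were 33 of 76 genes of oxidative phosphorylation and 24 of 78 mitochondrial ribosomal proteins, all higher in CEFT. Of the cytosolic ribosomal proteins it called 1 of 78, also higher in CEFT. In limma the count was 4 without Ceft4, 0 without Enro10, 1 without Enro2, 447 without Ceft10, 693 without Enro5, 818 without Ceft5, 1071 without Ceft3, 1076 without Ceft8 and 3066 without Enro6. In edgeR, fitted to the 12 steers alone, it was 3718, and 2172 without Enro2. These alternatives were chosen after seeing the data.

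The ribosome-targeting drugs were then set against each of the other drugs, contrasts chosen after seeing the data. Against ENRO, edgeR's quasi-likelihood test called 0 genes (0.0%) on day 3, with 485 at an unadjusted p under 0.05 and 0 called by limma, and 2081 genes (10.9%) on day 7, 1158 higher (6.08%) and 923 lower (4.84%). Limma called 0 genes on day 7 for the same contrast, with 3312 at an unadjusted p under 0.05 and a smallest FDR of 0.147, but 1813 without Enro6, 1748 without Tula3 and 2 without Oxyt2. Of the edgeR calls, 42 of 76 genes of oxidative phosphorylation were higher and 0 lower (median 0.29 beside 0 for all genes), as were 29 of 78 mitochondrial ribosomal proteins (median 0.24), 6 of 16 mitochondrial chaperones and 8 of 78 cytosolic ribosomal proteins. CYC1 differed by 0.53 (FDR 0.0171) and AKAP9 by -0.59 (FDR 0.0171). The contrast shares the 6 ENRO steers with that of CEFT and ENRO, so these counts are not independent of the preceding ones.

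Against CEFT, the test called 3 genes (0.0157%) on day 3, all lower in the ribosome class, and 0 (0.0%) on day 7, where 1204 genes had an unadjusted p under 0.05 and limma called 0. The 3 genes were DBN1, PYGM and SERPINH1, a collagen chaperone. DBN1 changed by 0.46 to 1.71 (median 0.74) in the 6 CEFT steers, by -0.09 to 0.78 (median 0.24) in the 24 ribosome-class steers and by -0.08 to 0.4 in ENRO (difference -0.69, FDR 0.0265). PYGM changed by 0.29 to 1.81 in CEFT and by -0.73 to 1.06 in the ribosome class (difference -0.8, FDR 0.0842), and SERPINH1 by -0.12 to 3.88 and by -0.44 to 1.4 (difference -1.56, FDR 0.0842). The ranges overlapped for all 3, and by day 7 their mean changes in CEFT were 0.29, 0.11 and 0.22. This contrast shares the 24 ribosome-class steers with that against ENRO.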

How the data were processed

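RNA-seq of whole blood from 36 steers on days 0, 3 and 7 was used. The whole-number counts per gene were deposited by the authors, who derived them from StringTie transcript coverage on ARS-UCD1.3; the submitters' processing notes name FastQC 0.11.9, Trimmomatic 0.39, HISAT2 2.1.1, StringTie 2.2.0 and edgeR 3.36.0, and the annotation release is not given in the sources used here. Because the counts come from coverage, reads shared by overlapping genes may be divided between them.

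The table held 33282 genes. A gene was tested where 12 or more libraries exceeded 0.2 CPM, which kept 19056 and left out 14226. Counts were scaled by TMM and fitted with edgeR 4.0.16 (R 4.3.3) by the quasi-likelihood test, with steer as a block and class by day, or drug by day, as terms; the FDR threshold was 0.1 (Benjamini-Hochberg). For per-steer changes, log2 CPM was computed after adding a prior count of 2. Steers were paired with themselves across days by the labels, and the median correlation of deviations was 0.355 between libraries of the same steer and -0.102 between different steers of the same drug, above 0.1 for 36 of 36 steers. Alternatives used limma 3.58.1, DESeq2 1.42.0, sva 3.50.0, a stricter filter (CPM above 1 in 36 libraries, 13896 genes), no filter (27479 genes), RLE scaling, lane terms and samples left out. The scripts were tested on simulated data. Tables and plots were made with Python 3.11.15, pandas 2.3.3, numpy 2.4.6 and matplotlib 3.10.9.

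The members and gene lists were chosen with earlier results of these data known. Genes named for the class comparison were the 10 with the smallest p in each direction per day among genes with a symbol and a mean of at least 1 CPM, all genes of mitochondrial DNA, and up to 4 members of each other list, of which some are not reported here. The genes named between CEFT and ENRO (the 10 smallest p in each direction, and list members with the smallest p) and the contrasts of the ribosome class with each single drug were chosen after their values were seen. No sequences or coordinates are given, and list genes without a tested count were not analysed here. Separate steers are the replicates, but each drug had 1 pen, so p-values measure the spread between steers within pens.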

Additional observations from a re-analysis of the deposited data

Results flagged for a closer look

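Of the tested differences in the changes between drugs or classes, 5 had genes called by edgeR's quasi-likelihood test. That test called 0 genes for the class difference on day 3 and on day 7. It also called 0 for CEFT against ENRO and the ribosome class against ENRO on day 3. On day 7 it called 0 for the ribosome class against CEFT and among the 4 ribosome-targeting drugs. The 5 with calls are listed here. CEFT and ENRO differed in the change to day 7 for 3494 genes (18.3%), where limma called 1743, and 0 without steer Enro10. The ribosome-targeting drugs differed from ENRO on day 7 for 2081 genes (10.9%), where limma called 0. They differed from CEFT on day 3 for 3 genes (0.0157%). The class difference moved between day 3 and day 7 for 13 genes (0.0682%). The 4 ribosome-targeting drugs differed among themselves on day 3 for 1 gene (0.00525%), MRM2.

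In 1 of 36 groups of 6 steers examined, a steer stood apart from the other 5 by Dixon's test: YLPM1 changed by 1.21 to day 7 in steer Enro2, beside 0.16 to 0.32 in the other ENRO steers. Chance places about 1 in 20 groups in this position.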

How the results depend on the processing

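Of the counts of genes, 191 alternatives stayed within 1.5 times the reported count, and 47 moved, 12 rose from 0 and 5 fell to 0; the causes were not tested. For the class difference, DESeq2 called 4 genes on day 3 and 12 on day 7, the fit with no replicate block called 1 on day 3, and leaving out a drug or steer gave 0 to 4 on day 3 and 0 to 1739 on day 7. The difference between the days gave 6 genes with no filter, 21 by the likelihood ratio test, 6 after ComBat_seq, 2 with lane by day terms, 0 with lane 1 alone and 0 to 2086 with a drug left out (0 without FLOR, 2086 without CEFT), and the 13 named genes kept their sign in all of these. Among the 4 ribosome-targeting drugs the strict filter gave 3 on day 3 and the likelihood ratio test 28 and 5. The class difference on day 0 gave 10 with no filter and 0 with the strict filter. Between CEFT and ENRO, levels without day 0 (no replicate block) gave 798 genes on day 3 and limma 1743 on day 7, and leaving out a steer gave 0 to 1 on day 3 and 0 to 4697 on day 7 (2172 to 4697 in edgeR). Limma gave 6 genes for the ribosome class against CEFT on day 3 and 0 against ENRO on day 7. The limma and left-out-steer alternatives of the single-drug contrasts, and the lane and left-out-drug alternatives of the difference between the days, were chosen after seeing the data.

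The sign of a class difference turned in 19 alternatives for single genes. With lane 1 alone, DBN1 was 0.08 and MRPS36 -0.21 on day 3, and COX1 was 0.10 and COX3 3.07 on day 7. With lane 3 alone, COX1 was 0.08 on day 3, and on day 7 PPCS was -0.01, SUFU 0.07, COX3 0.08, CD79B -0.01, MRPL43 -0.11 and NDUFB10 -0.12. With lane by day terms, COX3 was 0.64 and NDUFB10 -0.01 on day 7. Leaving out a drug turned 5 genes and gave ranges over the 6 drugs left out of -0.69 (without ENRO) to 0.01 (without CEFT) for DBN1 on day 3, of -0.20 (without CEFT) to 0.10 (without ENRO) for COX1 on day 3 and of -0.31 (without ENRO) to 0.26 (without CEFT) for COX1 on day 7. On day 7 these ranges, from without ENRO to without CEFT, were 0.00 to 0.35 for MRPL43, -0.05 to 0.94 for LCN2 and -0.05 to 0.46 for NDUFB10.

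With 6 steers a drug and 1 pen a drug, differences between drugs cannot be told apart from those between pens, and the median half-width of limma's 95% interval for a class difference was 0.226 on day 3 and 0.275 on day 7.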
